A study of Mus musculus with 6 samples.

Results

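5-hydroxymethylcytosine (5hmC) and 5-formylcytosine (5fC) were read in a strand-resolved way at CG dinucleotides of E14 cells, an established mouse embryonic stem cell line of male origin, and the dyads described here carried 5hmC on both strands but 5fC on 1 strand only. A CG dinucleotide is palindromic, so each has a cytosine on either strand, and the pair is called a dyad. Dyads were taken from chromosomes 1 to 19. A dyad was kept when the deposited 5hmC list held both of its cytosines and the 5fC list held exactly 1 of them. This gave 1440718 dyads of the 11410464 autosomal CG dyads in either list (12.6%), hereafter asymmetric dyads. They made up 32.4% of the 4450086 dyads with 5hmC on both strands and 71.9% of those that had any 5fC. The other classes set beside them are the 563059 dyads with both marks on both strands, called symmetric dyads, and the 2446309 dyads with 5hmC on both strands and no listed 5fC.

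The TET enzymes oxidise 5-methylcytosine to 5hmC, and oxidise 5hmC further to 5fC, working on one cytosine at a time. 5fC is recognised and excised by the glycosylase TDG, after which base excision repair restores an unmodified cytosine. Because the maintenance methyltransferase copies methylation across the dyad at replication while oxidised forms are copied poorly or not at all, the strands of a dyad can come to differ. In mouse embryonic stem cells both oxidised forms occur mainly at CG, and 5fC is much the rarer.

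The cells were grown in medium with fetal bovine serum and LIF on gelatin. By the labels, DNA of a culture at passage 14 gave 2 technical replicate libraries of 5fC and 2 of 5hmC, and DNA of a second culture, at passage 12, gave 2 more of 5hmC. The labels name no treatment or genetic change. The assay, Pvu-Seal-seq, uses PvuRts1I, an enzyme that cuts at a short set distance 3′ of a modified cytosine, followed by chemical tagging and capture. The labels name 1 table for the 5hmC libraries of both cultures, and whether the culture at passage 12 adds to it is not stated. Each table holds 1 read count per listed cytosine, pooled over libraries. Replicate error is thus unknown, and strands and classes were compared without a test. Intervals are 95% Wilson intervals over dyads. They cover counting error only, and dyads are not replicates. The DNA tables hold no expression values against which the cell type could be checked.

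The autosomal CG cytosines of the 5fC list held 80060640 reads, with a median of 13 reads per cytosine. Those of the 5hmC list held 226389968, with a median of 10. The least number of reads in either list was 2, and the most frequent at CG was 8 for 5fC and 4 for 5hmC. An unlisted cytosine may still have reads or the mark, since the rule for listing is not known. The members were selected on their listing in both tables, and so on their read numbers in both. Which strand carried 5fC was not fixed by that choice, since the rule treats the strands alike.

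The strand with 5fC was most often the one with more 5hmC. Of the 1402221 asymmetric dyads whose strands differed in 5hmC reads, 987247 had 5fC on the strand with more (70.4%, interval 70.3 to 70.5%), and the remaining 414974 had it on the strand with fewer. A further 38497 dyads (2.67%) had equal 5hmC reads. The background set beside this share is 64.0%, the share of symmetric dyads in which the strand with more 5fC reads also had more 5hmC reads. It ranks strands that are both listed for 5fC, not a listed strand against an unlisted one, so the measures differ. Random strands would give 50%. The cytosine with 5fC had a median of 20 5hmC reads (quartiles 10 and 33), against 11 (6 and 19) for the cytosine across from it. Summed over asymmetric dyads, the 5fC strand held 35111327 5hmC reads, against 20054132 on the other strand, or 63.6% of the total. The log2 ratio of 5hmC reads, 5fC strand over other strand, had a median of 0.82 and quartiles of -0.25 and 1.87. Orientation to the reference genome did not enter: 5fC was on the plus strand in 49.9% of asymmetric dyads, and the share on the strand with more 5hmC was 70.4% with 5fC on plus and 70.5% with 5fC on minus.

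**Figure D1:**
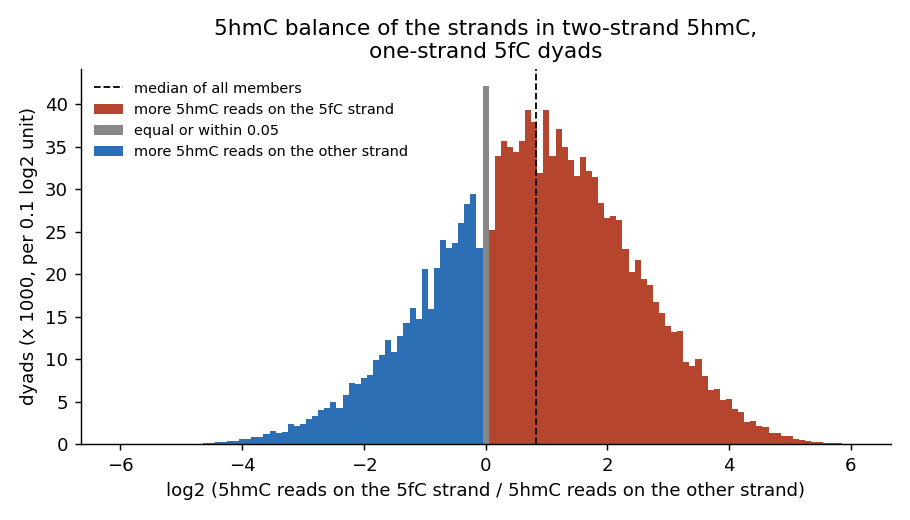
Histogram of the log2 ratio of 5hmC reads on the 5fC strand over those on the other strand in asymmetric dyads (x axis), with the number of dyads, divided by 1000, per 0.1 log2 unit (y axis). Red bars have more 5hmC on the 5fC strand and blue bars more on the other strand, and the dashed line marks the median of 0.82. The 62 dyads above 6 log2 units are not drawn.

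Many of these dyads were strongly unbalanced in 5hmC, somewhat more often than symmetric dyads, and mainly toward the 5fC strand. The 5hmC reads of the strands were at least 2 times apart in 60.3% of asymmetric dyads. Over all dyads with 5hmC on both strands the background was 55.1%, and in symmetric dyads the share was 55.9%. In 46.6% of asymmetric dyads the 5fC strand had at least 2 times the 5hmC reads of the other strand, while in 13.7% the other strand had at least 2 times those of the 5fC strand. A difference of at least 4 times occurred in 28.0%, against a background of 21.9% over all dyads with 5hmC on both strands. In symmetric dyads the share was 25.3%. Among asymmetric dyads this difference lay toward the 5fC strand in 23.3% and toward the other strand in 4.70%. At the extremes, 7.53% of asymmetric dyads had 20 or more 5hmC reads on the 5fC strand and only 2 to 4 on the other. The reverse was found in 1.36%. How frequent such extremes were over all dyads with 5hmC on both strands was not counted.

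The share of 5fC on the strand with more 5hmC climbed with the 5hmC imbalance. It was 55.8% (interval 55.7 to 56.0%) where the strands were less than 1.5 times apart, 63.7% between 1.5 and 2 times, and 70.2% between 2 and 3 times. From 4 to 8 times it was 80.7%, from 8 to 16 times 86.6%, and at 16 times or more 92.6% (92.2 to 92.8%). In dyads with 80 or more 5hmC reads the share was higher in each of these classes, at 61.5% below 1.5 times, 85.3% between 2 and 3 times and 97.4% at 16 times or more. Without regard to imbalance, it was 56.0% in dyads with 4 to 9 5hmC reads, 68.5% with 20 to 39, 84.1% with 80 to 159 and 92.9% with 160 or more, the last resting on 1333 dyads. Members need 1 strand unlisted for 5fC, and a cytosine with many 5hmC reads was seldom unlisted. The part of this selection in the rise with depth was not tested.

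**Figure D2:**
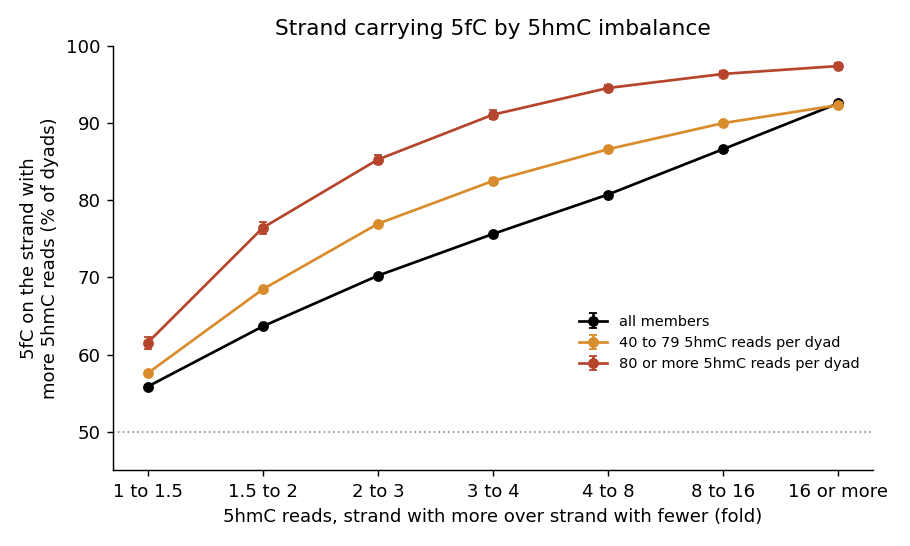
Share of asymmetric dyads with 5fC on the strand with more 5hmC reads (y axis, from 45%) by the fold between the strands in 5hmC reads (x axis), for all members and for dyads of 40 to 79 and of 80 or more 5hmC reads, with 95% Wilson intervals. The dotted line is at 50%, and the share among all members runs from 55.8% to 92.6%.

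The same rise appeared with the strength of the 5fC signal. With 2 to 4 5fC reads, 60.4% of asymmetric dyads had 5fC on the strand with more 5hmC. The share was 69.1% with 10 to 19 5fC reads, 78.6% with 20 to 39, 90.1% with 40 to 79 and 96.7% (interval 96.3 to 97.1%) in the 8826 dyads with 80 or more. Dyads with 5fC on the strand with more 5hmC had a median of 14 5fC reads (quartiles 8 and 23), and those with it on the strand with fewer had 11 (7 and 17). Across asymmetric dyads the 5fC reads had a Spearman correlation of 0.35 with the 5hmC reads of their own strand and of 0.04 with those of the other strand (n = 1440718). This is a description, since the dyads share the same libraries. Within asymmetric dyads the 5hmC reads of the strands were themselves hardly related, with a Spearman correlation of 0.08. The rule leaves out dyads with 5fC listed on both strands or on neither, and listing went with a cytosine's own 5hmC reads. The part of this selection in the low correlations was not tested.

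Symmetric dyads showed a graded form of the same arrangement. Where their strands were less than 1.5 times apart in 5fC reads, the strand with more 5fC had more 5hmC in 54.1%. At 4 to 8 times apart the share was 75.0%, and at 16 times or more 90.2% (interval 89.3 to 91.0%). The median log2 ratio of 5hmC reads toward the strand with more 5fC was 0.57 over all symmetric dyads with unequal reads, against 0.82 toward the 5fC strand in asymmetric dyads. Where 5hmC was itself listed on 1 strand only, 79.8% of the 1373104 dyads with 5fC on 1 strand had both marks on the same strand.

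Few members had the lowest read numbers. The limit of listing is not known, so how many lay close to it cannot be told. Their median of 13 5fC reads equalled that of all autosomal CG cytosines of the 5fC list. Of the asymmetric dyads 2.10% had 2 5fC reads and 9.24% had 2 to 4, while 408858 (28.4%) had 20 or more on the listed strand with none listed across. Just outside the rule, 69863 symmetric dyads (12.4% of them) had 2 to 4 5fC reads on the strand with fewer. Of those with unequal reads of both marks, 64.6% had more 5hmC reads on the strand with more 5fC. On the 5hmC side, 5.46% of asymmetric dyads had 2 reads on the strand with fewer. Among those with unequal 5hmC reads, the 5fC lay on the strand with more in 73.7%.

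How far each strand's 5hmC went with its own 5fC was followed over the cytosines of all dyads with 5hmC on both strands. A cytosine with 16 to 31 5hmC reads was listed for 5fC in 35.0% of cases when the cytosine across from it had 2 to 3 5hmC reads, and in 54.6% when that had 64 or more. Turned round, with 16 to 31 5hmC reads across the dyad, the share was 15.0% for a cytosine with 2 to 3 reads of its own and 91.7% for one with 64 or more. The share thus spanned 76.7 percentage points over the cytosine's own reads and 19.5 over those of the other strand. Over the reads across the dyad the share ran from 9.46% to 38.2% at cytosines with 4 to 7 reads of their own and from 91.1% to 93.7% at those with 64 or more.

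**Figure D3:**
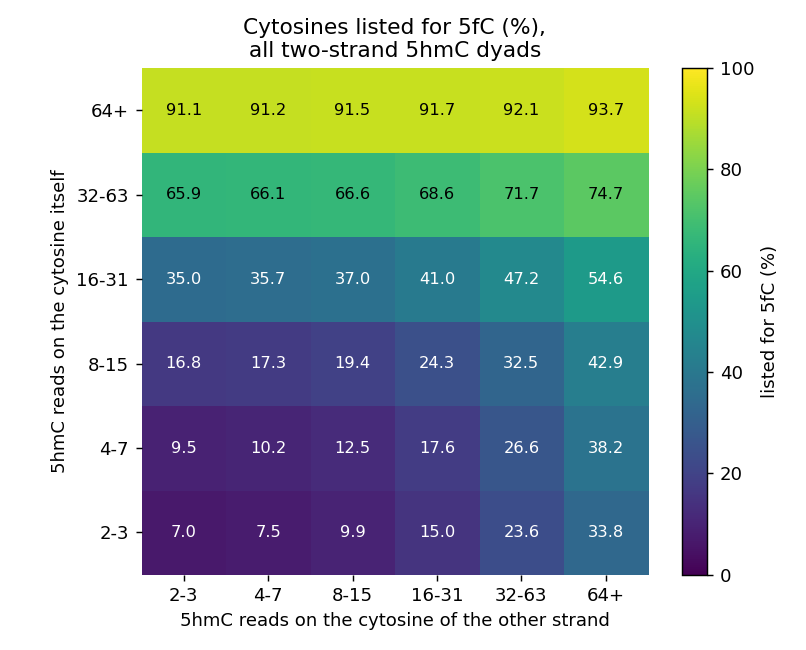
Percentage of cytosines listed for 5fC among all dyads with 5hmC on both strands, by the 5hmC reads of the cytosine itself (y axis) and of the cytosine on the other strand (x axis). Colour and numbers give the same percentage, which spans more over the full range of own reads than over that of the reads across. Along the row of 16 to 31 own reads it runs from 35.0% to 54.6%. The lowest rows differ little from each other, with 15.0% at 2 to 3 and 17.6% at 4 to 7 own reads for 16 to 31 reads across. Along the row of 2 to 3 own reads it runs from 6.95% to 33.8%.

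With both strands in the same class of 5hmC reads, 5fC on the cytosine across still went with a higher chance of listing. Reads still differed within a class, and the part of that in these shares was not tested. Where both strands had 8 to 15 5hmC reads, a cytosine was listed for 5fC in 30.9% of cases when the other was listed and in 16.6% when it was not. With 16 to 31 reads each, the shares were 48.4% and 35.8%, and with 32 to 63 reads each 74.1% and 65.6%. At 64 or more they were 93.8% (interval 93.3 to 94.3%) and 91.8% (89.4 to 93.7%), and these intervals overlap. Asymmetric dyads were most frequent at middle levels in these matched classes. They made up 11.05% of dyads with 2 to 3 5hmC reads on each strand, 42.3% with 16 to 31, and 11.5% with 64 or more.

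By the summed 5hmC reads of a dyad, asymmetric dyads were again most frequent at middle levels. The limit of the rule given for the matched classes applies here too. Asymmetric dyads were 12.8% of dyads with 4 to 9 5hmC reads, 48.5% of those with 40 to 79 and 20.2% of those with 160 or more. Symmetric dyads made up 1.76%, 25.6% and 79.4% of these 3 classes. Asymmetric dyads had a median of 33 5hmC reads over both strands, symmetric dyads 49, and dyads without listed 5fC 19. Among dyads with any 5fC, the asymmetric share was 87.9% with 4 to 9 5hmC reads and 20.3% with 160 or more. More frequent listing by itself lowers this share, and its part in the fall was not tested.

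PvuRts1I is known to cut best where a cytosine on the opposite strand lies at a set distance beyond the cut, so cytosines of the 5hmC list were counted on the opposite strand at each distance 3′ of the cytosines of asymmetric dyads. They piled up at 21 to 24 bases. At any other distance from 2 to 60 bases the share was at most 1.91% for the cytosines with 5fC and 2.33% for those across. At 22 bases 15.6% of the cytosines with 5fC had such a partner, against 9.71% of the cytosines across from them. At 20 bases the values were 1.15% and 1.29%. Within the range of 20 to 23 bases, 35.7% of cytosines with 5fC had a listed partner, against 23.9% on the other strand, a gap of 11.8 percentage points (11.7 to 11.9). For 21 to 24 bases, a range chosen after the profile was seen, the shares were 40.8% and 27.9%. At 30 to 33 bases, beyond the cut distance, they were 4.98% and 5.57%.

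**Figure D4:**
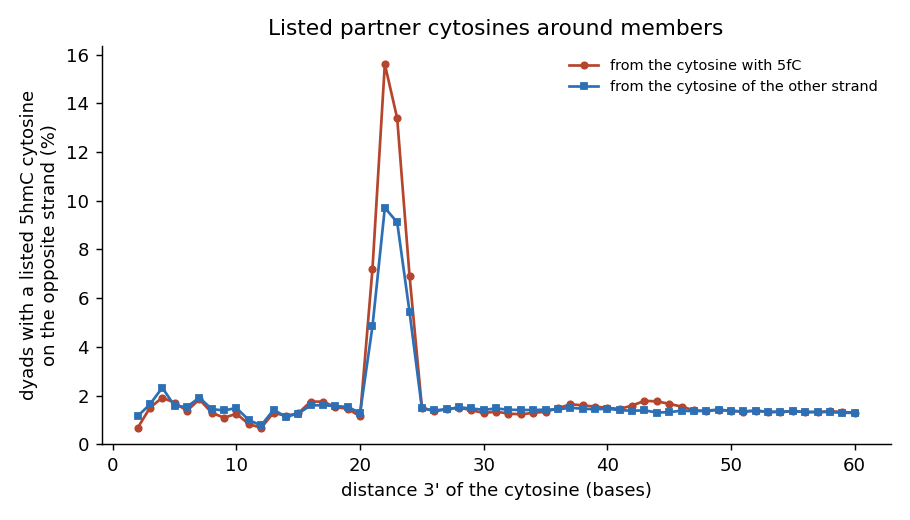
Percentage of asymmetric dyads with a listed 5hmC cytosine on the opposite strand (y axis) at each distance from 2 to 60 bases 3′ (x axis) of the cytosine with 5fC (red) and of the cytosine on the other strand (blue). Both lines rise at 21 to 24 bases, to 15.6% and 9.71% at 22 bases.

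Partners differed with the side on which 5fC lay. In 27.6% of asymmetric dyads only the cytosine with 5fC had a partner at 21 to 24 bases, and 5fC was then on the strand with more 5hmC in 84.8% (interval 84.7 to 84.9%). In 14.7% only the cytosine across had one, and the share was then 48.0% (47.7 to 48.2%), with medians of 15 5hmC reads on the 5fC strand and 16 on the other. In the 44.5% with no listed partner on either side it was 68.8%, and in the 13.2% with partners on both it was 70.4%. The side with more partners was the side with more 5hmC reads, whichever carried 5fC. With 5fC on the strand with more 5hmC, 46.8% of cytosines with 5fC had a partner, against 23.3% of those across. With 5fC on the strand with fewer, the direction turned: 27.6% had one, against 39.1% of those across, a gap of -11.5 percentage points. Where the strands were less than 1.5 times apart in 5hmC reads, 36.7% of cytosines with 5fC had a partner, against 32.9% of those across. A read may count at more than 1 cytosine in these lists, which is not stated, and the part of the enzyme's site preference in the strand of 5fC was not tested. Partners were counted for each class as well: 34.3% of the cytosines of asymmetric dyads had one at 21 to 24 bases, 47.5% in symmetric dyads and 18.0% in dyads without listed 5fC.

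Neighbouring asymmetric dyads were compared for the strand of their 5fC. Over 461833 pairs of consecutive members at most 200 bases apart, 50.9% had 5fC on the same strand (interval 50.7 to 51.0%), beside 50% for random strands. The share depended on distance. Pairs 2 to 5 bases apart shared the strand in 58.2% and pairs 6 to 10 bases apart in 57.9%. At 21 bases the share was 37.5% (36.5 to 38.5%), and 56.8% of the 9482 pairs had 5fC on opposite strands with their 3′ sides facing each other, against 5.71% with their 3′ sides turned away. With facing 3′ sides, dyads 20 to 23 bases apart place their 5fC cytosines 21 to 24 bases from each other, the partner distance given above, so the counts of partners and of facing pairs overlap. Between 101 and 200 bases the same strand was found in 49.6%, and between 501 and 1000 bases in 50.0%. By the strand with more 5hmC reads, the pairs at most 200 bases apart agreed in 48.7%.

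**Figure D5:**
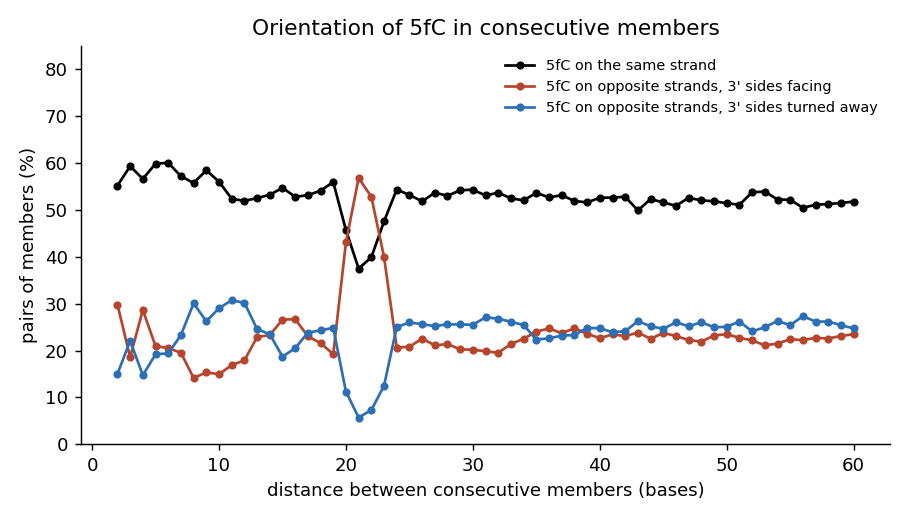
Pairs of consecutive asymmetric dyads (y axis, percentage of pairs) by the distance between them in bases (x axis): 5fC on the same strand (black), on opposite strands with 3′ sides facing (red) and on opposite strands with 3′ sides turned away (blue). The red line peaks at 21 bases with 56.8%, where the blue line is at 5.71%.

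Asymmetric dyads lay in surroundings between those of the other classes. A median of 9 other dyads with listed 5hmC lay within 500 bases (quartiles 6 and 13), against 10 (7 and 14) around symmetric dyads and 7 (4 and 11) around dyads without listed 5fC. No other listed CG of either table lay within 50 bases for 29.7% of asymmetric dyads, 22.99% of symmetric dyads and 42.7% of dyads without listed 5fC. At like 5hmC reads, crowding went with less asymmetry: among dyads with any 5fC and 40 to 79 5hmC reads, 74.2% were asymmetric with 0 to 2 other 5hmC dyads within 500 bases and 58.0% with 21 or more. The strand of 5fC moved less with crowding. In the class of 40 to 79 5hmC reads, 5fC lay on the strand with more 5hmC in 78.0% of the least crowded asymmetric dyads. In the most crowded it was 75.3%. With 20 to 39 5hmC reads these shares were 72.3% and 66.8%. With 80 to 159 they were 84.4% and 85.5%, the other direction.

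Chromosomes hardly differed in strand choice. The share of 5fC on the strand with more 5hmC lay between 69.9% on chromosome 17 and 70.8% on chromosome 11 over the 19 autosomes. The number of asymmetric dyads ran from 43453 on chromosome 19 to 123922 on chromosome 11. Chromosomes 8 and 11 stood apart in frequency and depth. Asymmetric dyads made up 34.7% and 36.0% of their dyads with 5hmC on both strands, against 30.4% to 33.4% on the other autosomes. Among dyads with any 5fC they made up 66.8% and 65.5%, against 72.0% to 74.3%. Their median 5hmC reads per asymmetric dyad were 39 on both, against 32 to 33 elsewhere, and the part of this depth in those shares was not tested.

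Strand choice was also counted in windows of 100 kb. Asymmetric dyads were found in 23661 windows, with a median of 43 and at most 409, and the tenth of windows richest in them held 29.3%. The like share for all dyads with 5hmC on both strands was not counted. There were 481 windows with 200 or more asymmetric dyads. Among these, the share of 5fC on the strand with more 5hmC had a 5th percentile of 65.1% and a 95th of 75.0%. It was below 50% in 0 of them. Positions are given in build mm9, for which no gene annotation was used here. The 409 asymmetric dyads of the richest window, chromosome 11 from 117900001 to 118000000, stood among 919 dyads with 5hmC on both strands, and 70.8% (interval 66.1 to 75.0%) had 5fC on the strand with more 5hmC. Chromosome 8 from 123000001 to 123100000 followed with 343 and chromosome 8 from 119800001 to 119900000 with 309. The highest share among windows with 200 or more was 79.5% (73.6 to 84.4%) on chromosome 8 from 26200001 to 26300000. The lowest was 60.3% (54.1 to 66.3%) on chromosome 17 from 47000001 to 47100000. Next above it were windows of chromosome 5, with 61.4% from 114700001 to 114800000 and 61.8% from 122300001 to 122400000. The windows of highest and lowest share were picked as the extremes of the 481. Whether the spread between windows goes beyond counting error was not tested.

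Single dyads show the range of the pattern. They were named among the 209530 members with at least 10 5hmC reads on each strand, at least 20 5fC reads and no site above 1000 reads. The most 5fC reads were 451 on the minus cytosine of the dyad at chromosome 11, 62145734 to 62145735, where the 5fC strand had 161 5hmC reads and the other strand 12. On chromosome 7 at 137911510 to 137911511, 432 5fC reads stood on the minus strand, with 128 5hmC reads there and 20 across. On chromosome 4 at 122722687 to 122722688, the plus strand had 428 5fC reads and 120 5hmC reads, against 29 5hmC reads on the minus strand. In all 3 the 5fC strand was the one with more 5hmC.

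The highest 5hmC ratio toward the 5fC strand was 54.0 times, at chromosome 6, 114473289 to 114473290, with 918 5hmC reads on the plus strand that carried 278 5fC reads, against 17 on the minus strand. Chromosome 1 at 17514873 to 17514874 had 537 and 11 5hmC reads on the 5fC strand and the other strand, with 42 5fC reads. Chromosome 11 at 3050796 to 3050797 had 458 and 11 in the same order, with 115 5fC reads. Dyads of the opposite kind were milder. At chromosome 2, 70797482 to 70797483, the minus strand carried 49 5fC reads and 10 5hmC reads, against 117 5hmC reads on the plus strand. Chromosome 11 at 97808507 to 97808508 had 20 5fC reads on a strand with 12 5hmC reads, against 129 across, and chromosome 8 at 42317457 to 42317458 had 51 5fC reads on a strand with 18 5hmC reads, against 186 across.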

How the data were processed

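Both deposited tables hold whole-number read counts per cytosine, which the authors did not normalize, each pooled over libraries. The submitters' processing notes name Bowtie, cutadapt, bcl2fastq and CASAVA, without versions, and build mm9. The sources used here do not say how 5fC libraries were made, how cut ends were assigned to cytosines or which libraries were summed. Plus and minus cytosines were joined into dyads from their positions, and reads were compared between strands without scaling. Members, lists and settings were chosen with earlier results of these data known. No p-values are given. Dyads and windows were named by a rule: the 3 with the most 5fC reads, and the 3 highest and 3 lowest 5hmC ratios, and for windows the 3 with most members and the 3 highest and 3 lowest shares among those with 200 or more. Alternatives were read minimums of 5 and 10, at least 20 5fC reads, and changes in sites, chromosomes, isolation, ties and distances. The counting functions passed 6 of 6 checks on 20000 simulated dyads. Python 3.11.15, numpy 2.4.6, pandas 2.3.3, scipy 1.17.1 and matplotlib 3.10.9 were used. No mm9 sequence or annotation was used here, so bases around dyads and genes are not described.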

Additional observations from a re-analysis of the deposited data

How the results depend on the processing

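No paired analysis was possible because each site has a single count summed over libraries, and no library could be left out. Intervals over this many dyads are very narrow: of 42 alternatives 32 lay outside the interval of the value reported, and 1 of these crossed 50%. The cause of each move was not tested. The share of 5fC on the strand with more 5hmC, 70.4%, stayed above 50% in all 10 settings. It was 70.7% with at least 10 reads per site, 81.1% with at least 20 5fC reads, 72.4% with no other listed CG within 50 bases, 68.5% with ties counted against it and 77.3% with strands at least 2 times apart. Added after the data were seen, it was 68.8% without listed partners and 71.7% with 1 or more. The median log2 ratio of 0.82 was 0.70 and 0.55 with at least 5 and 10 reads, 1.34 with at least 20 5fC reads, 0.81 without chromosomes 8 and 11 and 0.87 with no CG within 50 bases. The asymmetric share of dyads with any 5fC, 71.9%, was 71.3% and 71.7% with at least 5 and 10 reads. It was 73.1% without chromosomes 8 and 11 and 76.8% with no CG within 50 bases. With 5fC cytosines below 20 reads counted as unlisted it was 86.6% of 755994 dyads. That value takes in symmetric dyads with fewer than 20 5fC reads on 1 strand. It is thus not a share of the 408858 members with at least 20 5fC reads. The partner gap of 11.8 points was 11.3 and 10.6 with at least 5 and 10 reads, 20.0 with at least 20 5fC reads and 8.35 with no CG within 50 bases. It was 7.99 at 21 to 22 bases, 4.32 with partners of the 5fC table, 5.45 with CG partners, 6.69 with non-CG partners and, added later, 12.9 at 21 to 24 bases. The share of neighbours on the same strand, 50.9%, was 51.1% with at least 10 reads, 52.2% with at least 20 5fC reads, 51.9% within 50 bases, 50.4% within 1000 bases and, added later, 51.8% without listed partners. It was 49.98% with no CG within 50 bases, which removes the closest pairs.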

Other observations

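The sex chromosomes were outside the rule, and the same pattern was counted there. On chromosome X, 13461 dyads had 5hmC on both strands and 5fC on 1 strand, which is 21.5% of the 62579 dyads with 5hmC on both strands and 83.4% of those with any 5fC. Of the 12909 with unequal 5hmC reads, 69.7% (95% Wilson interval 68.9 to 70.5%) had 5fC on the strand with more 5hmC, with a median of 24 5hmC reads per dyad. On chromosome Y there were 106 such dyads, and 79 of the 103 with unequal reads (76.7%, interval 67.7 to 83.8%) had 5fC on the strand with more 5hmC.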
